A study of Mus musculus with 6 samples.

Results

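Malat1, Kcnq1ot1, Tug1 and Norad are long non-coding RNAs (lncRNAs), here followed through a capture of chromatin with a telomere-directed DNA probe. They were represented by 18 of 7959 deposited transcript models, which are stretches of the genome with assembled reads. A model was taken as a member when at least 50% of its exon bases lay within the RefSeq span of one of the 4 genes on the mouse build mm10 (GRCm38). Of the 18, 5 lay in Malat1, 11 in Kcnq1ot1, 1 in Tug1 and 1 in Norad. The RNA came from fixed chromatin of a mouse erythroleukemia line, MEL, whose strain is given as C57BL/6. TH59-DB, a pyrrole-imidazole polyamide that binds DNA at telomere repeats, was used for capture in 2 libraries. Masked TH59-DB, which the labels call the negative control, was used in 2 libraries, and 2 libraries held the Input chromatin before any capture. The cells of all 3 groups were fixed with formaldehyde and carried no other labelled treatment or allele. The labels do not say whether the paired libraries are separate cultures, so p-values here measure the spread between libraries, which may be technical. A strand-specific total RNA kit was used.

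Malat1 is an abundant nuclear RNA that gathers in nuclear speckles, bodies rich in splicing factors. Kcnq1ot1 is a long, largely unspliced RNA read from the paternal allele, antisense to Kcnq1, and it stays at its locus and silences imprinted genes around it. Tug1 is a conserved RNA found in the nucleus and the cytoplasm. Norad is mainly cytoplasmic and binds Pumilio proteins, which repress mRNAs.

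The 5 Malat1 models, numbered from the 5′ end of the gene, covered most of its span (chromosome 19, 5795690 to 5802672, minus strand). Model 2, called the long model here, had 1 exon of 3137 bases (5799535 to 5802671) and began 1 base inside the RefSeq 5′ end. Model 1, the spliced model, lay inside it with an exon of 949 bases (5801097 to 5802045), together with an exon of 1 base at 5805753 and another from 5858215 to 5858227, both outside the gene. Models 3, 4 and 5 lay downstream (5798599 to 5799439, 5798107 to 5798403 and 5796300 to 5797760). The 11 Kcnq1ot1 models were unspliced stretches of 159 to 732 bases that covered 4.24% of its span (chromosome 7, 143213111 to 143296547, minus strand). Models 1 to 3 lay within 5172 bases of the 5′ end and models 4 to 11 between 54346 and 75092 bases from it. All 11 also lay within the span of Kcnq1, so reads of Kcnq1 introns and of Kcnq1ot1 cannot be told apart in them. Tug1 had 1 model of 327 bases (chromosome 11, 3645295 to 3645621), and Norad had 1 of 915 bases (chromosome 2, 156392028 to 156392942), which also lay within the span of Gm14170. Only the spliced Malat1 model carried a usable strand, the minus strand of its gene. The other 17 were marked plus in the files of library number 1 and had no strand in those of number 2, so whether their reads were sense or antisense could not be determined.

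The start regions of the genes are shown because the long Malat1 model begins at one of them, while the nearest Kcnq1ot1 model begins 477 bases and the Tug1 model 3193 bases inside. The RefSeq promoter table of GRCm38.p6 matched 3 of the 4 genes. Each sequence runs 5′ to 3′ on the minus strand, with the first 50 bases of the gene in capitals. The positions are chr19:5802623-5802922 for Malat1, chr7:143296498-143296797 for Kcnq1ot1 and chr11:3648765-3649064 for Tug1.
Malat1: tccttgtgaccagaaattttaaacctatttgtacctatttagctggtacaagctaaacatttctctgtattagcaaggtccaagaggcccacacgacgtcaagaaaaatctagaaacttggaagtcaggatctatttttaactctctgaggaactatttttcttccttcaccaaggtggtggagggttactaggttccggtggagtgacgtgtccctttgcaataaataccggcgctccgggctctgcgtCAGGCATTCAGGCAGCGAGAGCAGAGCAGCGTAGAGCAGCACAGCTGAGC
Kcnq1ot1: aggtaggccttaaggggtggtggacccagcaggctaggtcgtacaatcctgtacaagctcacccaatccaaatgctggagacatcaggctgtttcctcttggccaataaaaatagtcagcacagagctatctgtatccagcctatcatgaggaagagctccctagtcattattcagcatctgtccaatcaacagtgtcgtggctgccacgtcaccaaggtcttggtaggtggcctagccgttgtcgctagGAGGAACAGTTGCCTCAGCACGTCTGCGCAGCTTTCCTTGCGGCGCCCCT
Tug1: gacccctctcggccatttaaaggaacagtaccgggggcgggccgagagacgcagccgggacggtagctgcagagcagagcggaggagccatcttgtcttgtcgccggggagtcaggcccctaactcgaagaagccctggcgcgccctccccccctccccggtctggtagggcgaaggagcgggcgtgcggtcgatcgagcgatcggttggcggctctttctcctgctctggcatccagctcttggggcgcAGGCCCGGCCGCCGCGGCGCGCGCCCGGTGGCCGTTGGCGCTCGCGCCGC
The letters TTAGGG, the vertebrate telomere repeat unit, and their reverse complement CCCTAA were searched on these strands. The Tug1 sequence held 1 CCCTAA, whose first base lay 133 bases before the start, and those of Malat1 and Kcnq1ot1 held neither. Of 32851 promoters of this length, 10.6% held at least 1 of these letter runs.

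Library totals ran from 1803723 to 3122558 reads, so that a single read was 0.320 to 0.554 CPM (counts per 1000000 reads of the library). The largest model held 50.8% of masked TH59-DB 1, and 4341 models had 0 reads there. TH59-DB 1 had no model with fewer than 5 reads, while the other 5 libraries had 1404 to 4341 models at 0, and both comparisons of TH59-DB use that library. Of 15 erythroid markers 7 had a model (Gata1, Klf1, Zfpm1, Nfe2, Epor, Car1 and Car2), with a summed level of 175 to 243 CPM in TH59-DB, 247 to 542 in masked TH59-DB and 455 to 602 in Input. No model lay in the globin genes of the list. Of 7 markers of other blood cells 2 had a model, at a summed 6.18 to 20.0 CPM in TH59-DB, 1.52 to 24.7 CPM in masked TH59-DB and 13.7 to 31.5 CPM in Input, and of 4 markers of other tissues none had. The part of these differences in the results below was not tested. In bulk libraries fewer cells with an RNA and less of it per cell cannot be told apart.

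Malat1 was by far the most abundant of the 4 RNAs in every library. The long model had 3877 and 3151 CPM in TH59-DB, 2231 and 4177 CPM in masked TH59-DB and 1045 and 1665 CPM in Input. Both captures lay above both Input libraries, and the TH59-DB values lay between the masked values. By reads it ranked 8 and 18 of 7959 models in TH59-DB, 10 and 6 with the masked probe and 25 and 17 in Input. Per length, the 4 single-exon Malat1 models, which share no bases, had 665 ± 87.7 CPM per kb in TH59-DB, 638 ± 308 in masked TH59-DB and 311 ± 94.8 in Input (SD, n = 2 each). Their reads made up 96.0% to 97.8% of those of the 4 genes in each library.

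The other 3 genes lay far lower, and their order was not the same in each group. In TH59-DB, Kcnq1ot1 had 34.1 ± 6.08, Tug1 29.9 ± 27.3 and Norad 17.8 ± 10.8 CPM per kb of their models (SD, n = 2 each). In masked TH59-DB, Tug1 had 60.8 ± 23.7, Norad 26.4 ± 18.6 and Kcnq1ot1 15.2 ± 5.20. In Input, Norad had 16.6 ± 7.40, Tug1 15.2 ± 0.262 and Kcnq1ot1 7.32 ± 3.79. In TH59-DB the values of Tug1 overlapped with those of Kcnq1ot1 and of Norad, in masked TH59-DB those of Norad with Kcnq1ot1, and in Input those of Norad with Tug1, so these neighbours in the order did not differ beyond their spread. Models cover only part of each gene, so these levels hold for the modelled bases.

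**Figure D1:**
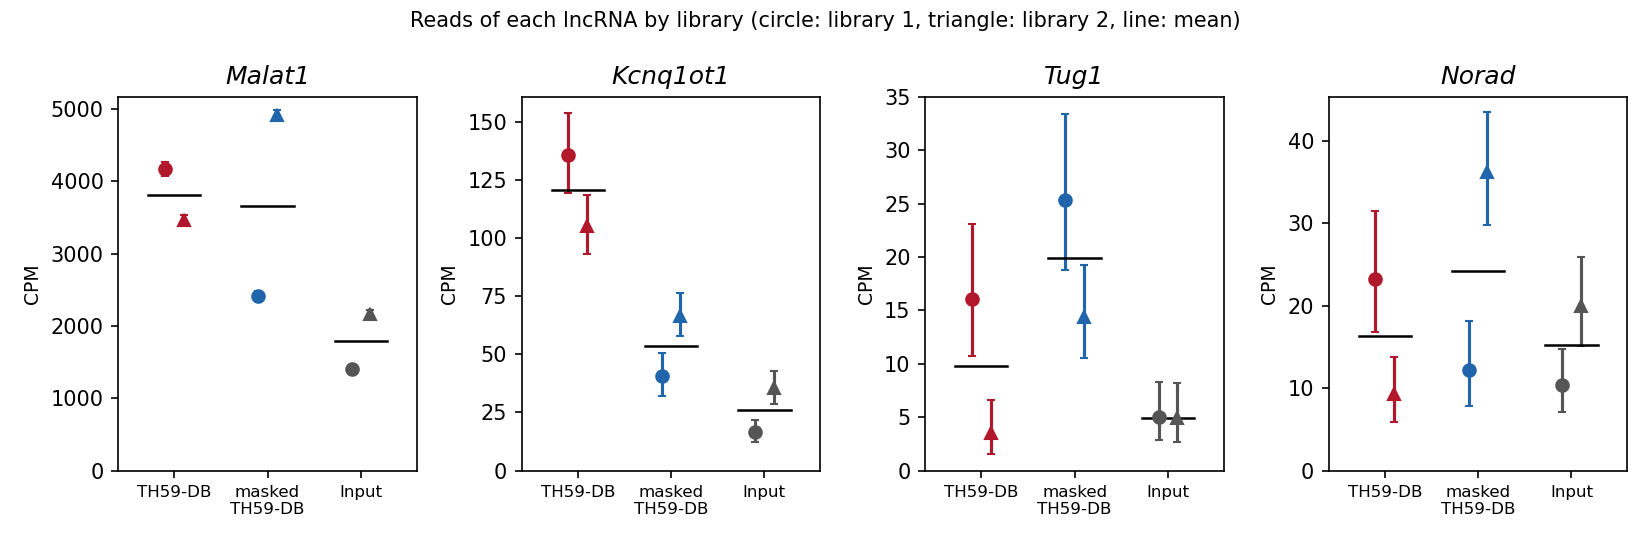
Summed CPM (vertical axis, from 0) of each gene in each of the 6 libraries, with 95% exact counting intervals; Malat1 is the sum of its 4 single-exon models. Horizontal lines are means of the 2 libraries of a group. Kcnq1ot1 is higher in both TH59-DB libraries than in both masked and both Input libraries, while Malat1, Tug1 and Norad overlap between the captures. In TH59-DB 1 no deposited model has fewer than 5 reads.

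TH59-DB against masked TH59-DB sets the telomere-directed probe against its control probe. Of the 18 member models, all passed the read filter, and 0 passed edgeR's test in either direction (2.82% of all 5498 tested models passed as higher and 0.0% as lower). Models 7, 9 and 11 of Kcnq1ot1 passed the filter only through TH59-DB, with 10 to 17 reads in each TH59-DB library and 0 to 8 elsewhere. Models 1, 2, 3 and 8 also needed a TH59-DB library to pass. Their values above 0 and lack of overlap, here and against Input, are thus not independent of the filter. Kcnq1ot1 model 3 was the 1 model with an unadjusted p under 0.05 (9.86% of all tested models were higher and 1.76% lower by that rule), and DESeq2 called 0. Without masked TH59-DB 2 edgeR called 5 (models 3, 4, 7 and 8 of Kcnq1ot1, and Tug1), in a fit that called 23.7% of all tested models. Without masked TH59-DB 1 it called Kcnq1ot1 model 5 (4.32% of all tested models). The ranges of the 2 groups did not overlap for 6 models that were higher, all in Kcnq1ot1, and for 1 that was lower, Malat1 model 4 (17.2% and 14.4% of all tested models). The median log2 fold change was 0.84 over the 18 and 0.45 over all tested models. By gene it was 1.53 over the 11 Kcnq1ot1 models and 0.30 over the 5 Malat1 models, with -1.23 for Tug1 and -0.31 for Norad.

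Of the 4 genes, Kcnq1ot1 was the one whose summed levels did not overlap between the 2 probes. Its 11 models together had 136 and 105 CPM in TH59-DB (245 and 273 reads), against 40.6 and 66.6 CPM in masked TH59-DB (80 and 208 reads). Both TH59-DB libraries lay above both masked libraries, a ratio of means of 2.25. The exact permutation test gave a p of 0.333 (2-sided, n = 2 each), the smallest that 2 against 2 allows. The 11 fitted log2 fold changes, all from stretches of the same gene, were above 0, from 0.11 to 4.16 with a median of 1.53. The median over all tested models was also above 0, at 0.45. For the 11, the adjusted p-values by edgeR ran from 0.319 to 0.983. With a library left out, 9 of the 11 were above 0 without masked TH59-DB 2 or without TH59-DB 2, and 10 without masked TH59-DB 1 or without TH59-DB 1. In these fits the median of all tested models was 5.26, 0.86, 0.36 and 0.19, in that order. Masked TH59-DB 1 had 0 reads in 5 of the 11 models, and Input 1, Input 2 and masked TH59-DB 2 in 1 each. Both TH59-DB libraries had reads in all 11. Over all 7959 models, those at 0 reads numbered 4341 in masked TH59-DB 1, 1760 in Input 1, 1884 in Input 2 and 1859 in masked TH59-DB 2. They numbered 0 in TH59-DB 1 and 1404 in TH59-DB 2. The sum, its ratio, the lack of overlap and the count of 11 models above 0 all include models that needed TH59-DB to pass the read filter. They also all include TH59-DB 1. There each Kcnq1ot1 model had 10 to 80 reads, and no deposited model had fewer than 5. The part of this in the difference between the probes was not tested.

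The Kcnq1ot1 models differed among themselves. Model 10, the most abundant (143225311 to 143226042), had 44.4 and 18.2 CPM in TH59-DB against 6.09 and 24.0 CPM in masked TH59-DB. These groups overlapped, with masked TH59-DB 2 above TH59-DB 2, and the log2 fold change of 1.36 ran over 0.60 to 1.83 when either masked library was left out. Model 3 (143291375 to 143291545) had 17 and 15 reads in TH59-DB against 0 and 3 in masked TH59-DB. The groups were apart, with a pooled ratio of 12.4 (95% exact counting interval 3.87 to 63.1). Its log2 fold change was 4.16 (SE 1.73), which did not pass edgeR's test (adjusted p = 0.319), and 3.23 to 7.22 with a library left out. Model 11 (143221455 to 143221770), the farthest from the 5′ end, had 6.65 and 5.79 CPM in TH59-DB against 0 and 1.28 CPM in masked TH59-DB, a log2 fold change of 3.63 (SE 1.84, edgeR adjusted p = 0.510). At model 1 (143295690 to 143296070) the TH59-DB libraries had 18 and 18 reads, and the masked libraries 26 and 2.

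**Figure D2:**
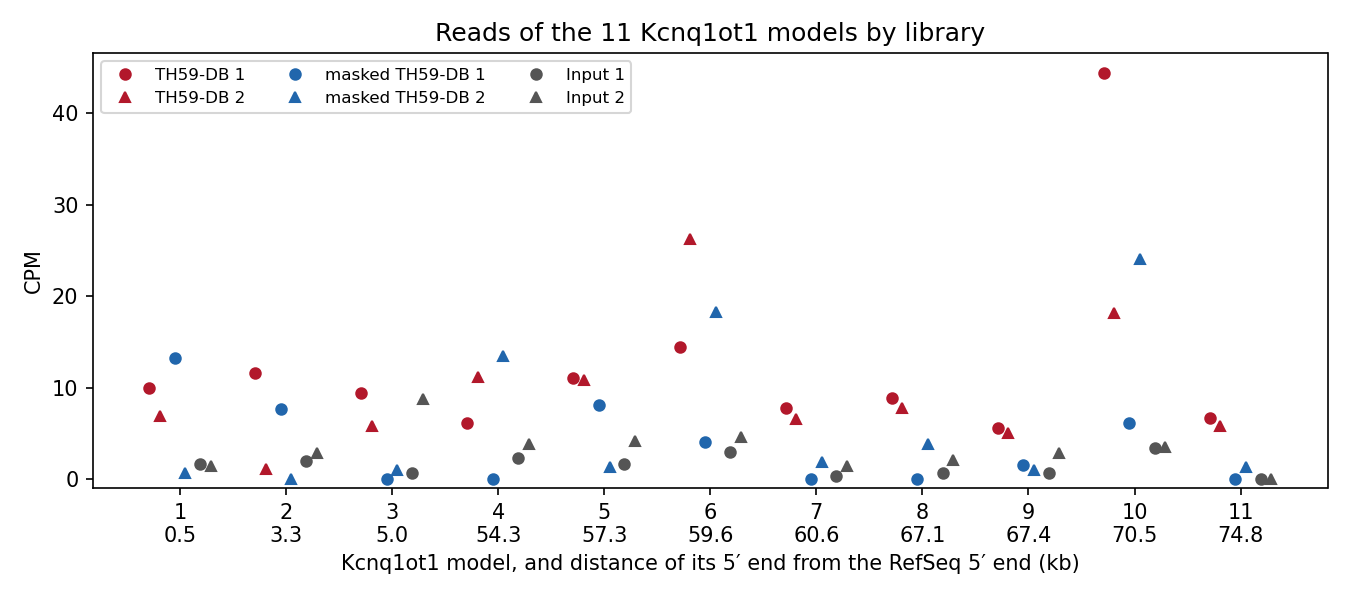
CPM (vertical axis) of the 11 Kcnq1ot1 models in the 6 libraries, ordered from the 5′ end, with the distance of each from that end in kb. The TH59-DB points lie above the Input points at 9 of 11 models and above the masked points at 6.

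Where along Kcnq1ot1 the reads lay also varied between libraries. Models 1 to 3, near the 5′ end, took 22.9% and 13.2% of the Kcnq1ot1 reads in TH59-DB, 51.3% and 2.40% with the masked probe and 26.5% and 36.6% in Input. The masked libraries thus held the highest and the lowest share. These models make up 20.8% of the modelled Kcnq1ot1 bases.

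The Malat1 models showed no difference between the probes beyond the spread of the libraries. The long model averaged 3514 ± 513 CPM in TH59-DB and 3204 ± 1376 CPM in masked TH59-DB (SD, n = 2 each). Its log2 fold change was 0.47 (SE 0.96, edgeR adjusted p = 0.909), beside a median of 0.45 over all models, and it was -0.12 without TH59-DB 2. The spliced model had 0.49 (SE 0.95, edgeR adjusted p = 0.904), or -0.067 without TH59-DB 2. Downstream, model 4 had 18.3 and 34.4 CPM in TH59-DB against 38.1 and 71.7 CPM in masked TH59-DB. The groups did not overlap, and the test did not pass (log2 fold change -0.54, SE 0.69, edgeR adjusted p = 0.852). Model 3 had 88.7 and 101 CPM in TH59-DB, against 38.1 and 200 CPM in masked TH59-DB. Model 5 had 186 and 171 CPM in TH59-DB, against 106 and 463 CPM in masked TH59-DB. In both cases the TH59-DB values lay between the masked ones.

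Tug1 and Norad had lower mean levels with TH59-DB than with the masked probe, within the spread of the libraries. Tug1 had 16.1 and 3.48 CPM in TH59-DB (29 and 9 reads), against 25.4 and 14.4 CPM in masked TH59-DB (50 and 45 reads). The groups overlapped, and the log2 fold change was -1.23 (SE 0.94, edgeR adjusted p = 0.734). It was -0.48 without masked TH59-DB 1 (edgeR adjusted p = 0.798), and it passed as lower only without masked TH59-DB 2 (-2.03, edgeR adjusted p = 0.0354), a setting in which the median of all tested models was 5.26. Norad had 23.3 and 9.27 CPM in TH59-DB (42 and 24 reads), against 12.2 and 36.2 CPM in masked TH59-DB (24 and 113 reads). Here the TH59-DB values lay between the masked ones, with a log2 fold change of -0.31 (SE 0.70, edgeR adjusted p = 0.921), and -0.94 without masked TH59-DB 1.

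TH59-DB against Input asks which RNAs were more or less frequent after capture than before it. Of the 18 models, 1 passed edgeR's test as higher and 0 as lower (4.4% and 0.0546% of all 5498 tested models). At an unadjusted p under 0.05, 3 models (6, 10 and 11 of Kcnq1ot1) were higher and 0 lower (11.2% and 3.38% of all tested models). DESeq2 called 5, models 6, 10 and 11 of Kcnq1ot1 and models 1 and 2 of Malat1 (7.35% of all tested models). CPM ranges did not overlap for 11 models that were higher, 9 in Kcnq1ot1 and 2 in Malat1, and for 2 that were lower, both in Malat1 (23.4% and 23.1% of all tested models). The 9 include models that needed TH59-DB to pass the read filter. The 2 higher Malat1 models overlap in their bases, so here and among the DESeq2 calls they may count the same reads. The median log2 fold change was 1.98 over the 18 and 0.35 over all tested models. By gene it was 2.68 over the 11 Kcnq1ot1 models and 0.37 over the 5 Malat1 models, with 1.00 for Tug1 and 0.33 for Norad.

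The model called higher was Kcnq1ot1 model 10. There the masked libraries, at 6.09 and 24.0 CPM, also lay above both Input libraries and overlapped with TH59-DB. Its values include TH59-DB 1, where no deposited model had fewer than 5 reads, and the part of this was not tested. Model 10 had 44.4 and 18.2 CPM in TH59-DB (80 and 47 reads), against 3.35 and 3.50 CPM in Input (10 and 10 reads). The groups were far apart, with a ratio of means of 9.12 (pooled ratio 8.44, 95% exact counting interval 5.24 to 14.3). The log2 fold change was 3.33 (SE 0.82, edgeR adjusted p = 0.0301), and 2.84 to 3.44 under all alternatives. The call was kept in 6 of 12 alternatives. It was lost with the library totals in place of the summed model counts (edgeR adjusted p = 0.0887 with TMM and 0.101 without), and without Input 1 (0.981), Input 2 (0.945), TH59-DB 1 (0.303) or TH59-DB 2 (0.254).

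The other Kcnq1ot1 models lay the same way without passing. Together the 11 had 136 and 105 CPM in TH59-DB against 16.4 and 35.4 CPM in Input, a ratio of means of 4.66 with groups that did not overlap. The exact permutation test gave a p of 0.333 (2-sided, n = 2 each), the smallest possible. Model 6 (143236274 to 143236921) had 14.4 and 26.3 CPM in TH59-DB against 3.01 and 4.55 CPM in Input, and a log2 fold change of 2.95 (SE 0.95, edgeR adjusted p = 0.119). This was 1.15 without TH59-DB 2 (edgeR adjusted p = 0.876), and it passed without masked TH59-DB 1 (2.53, adjusted p = 0.00254) or masked TH59-DB 2 (2.83, adjusted p = 0.00193). Model 11 had 12 and 15 reads in TH59-DB and 0 in both Input libraries, where 3 reads would be 1.00 and 1.05 CPM. Against that floor of 3 reads per library it was at least 6.05-fold higher (edgeR adjusted p = 0.130). This fold and the summed ratio include TH59-DB 1, where no deposited model had fewer than 5 reads. Input 1 had 1760 models at 0 reads and Input 2 had 1884. The part of this in these values was not tested. At models 2 and 3 the groups overlapped.

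In CPM the 2 Malat1 models at the 5′ end lay above their Input levels and models 4 and 5, downstream, below theirs. None passed edgeR's test, and on the scale of the summed model counts these ranges were not compared. The long model averaged 3514 ± 513 CPM in TH59-DB and 1355 ± 438 CPM in Input (SD, n = 2 each), a ratio of 2.59. Its log2 fold change of 1.75 (SE 0.99) did not pass (edgeR adjusted p = 0.485), while DESeq2 called it (adjusted p = 0.0338). Without TH59-DB 2 it was 0.76 (edgeR adjusted p = 0.816). The spliced model averaged 3187 ± 538 CPM in TH59-DB and 1075 ± 411 CPM in Input, a log2 fold change of 1.95 (SE 0.98, edgeR adjusted p = 0.396; DESeq2 adjusted p = 0.0138), and 0.98 without TH59-DB 2 (edgeR adjusted p = 0.711). Model 5, nearest the 3′ end, had 186 and 171 CPM in TH59-DB against 244 and 334 CPM in Input. Both values were below both Input values in CPM, and the test did not pass (log2 fold change -0.31, SE 0.74, edgeR adjusted p = 0.948, and 0.054 without TH59-DB 1). Model 4 was also below, with 18.3 and 34.4 CPM in TH59-DB against 37.9 and 40.6 CPM in Input (log2 fold change -0.078, SE 0.69, edgeR adjusted p = 0.985, and 0.58 without TH59-DB 1). Model 3 overlapped, with 88.7 and 101 CPM in TH59-DB and 74.0 and 130 CPM in Input.

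**Figure D3:**
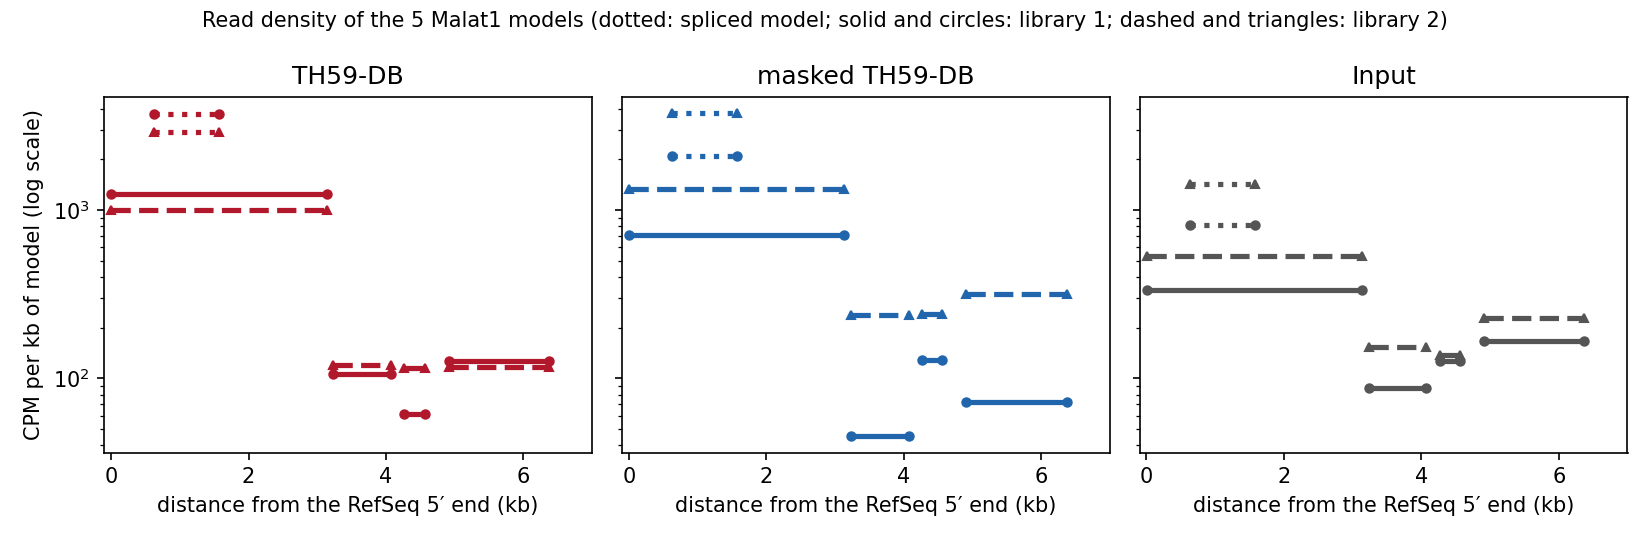
Read density (CPM per kb of model, log scale) of the 5 Malat1 models against the distance from the RefSeq 5′ end in kb, 1 panel a group. The long model at the 5′ end runs from 333 CPM per kb in Input 1 to 1332 in masked TH59-DB 2, and the 3 downstream models lie below it in all 6 libraries.

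This contrast can be read within each library, where the library total cancels. The 3 downstream models took 7.02% (95% exact interval 6.45% to 7.62%) and 8.87% (8.29% to 9.48%) of the reads of the 4 single-exon Malat1 models in the TH59-DB libraries. The share was 7.53% (6.79% to 8.32%) and 15.0% (14.4% to 15.5%) in masked TH59-DB, and 25.4% (24.1% to 26.7%) and 23.3% (22.2% to 24.3%) in Input. All 4 capture libraries were thus below both Input libraries, while the captures overlapped. These models hold 45.3% of the modelled bases. The mean share was 7.94% ± 1.31 in TH59-DB, 11.2% ± 5.25 in masked TH59-DB and 24.3% ± 1.49 in Input (SD, n = 2 each). Each capture against Input had an exact permutation p of 0.333, the smallest possible, and TH59-DB against masked TH59-DB had 0.667.

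Reads of the spliced model were also set against those of the long model. They were 92.0% and 89.1% of them in TH59-DB, 90.6% and 87.1% with the masked probe and 75.0% and 82.0% in Input. The capture libraries were all above the Input libraries. The exon that the 2 models share makes up 30.3% of the bases of the long model. Whether a read in this shared stretch was counted for both models is not given in the sources used here. Without that, these percents do not show where in the long model the reads lay. The files hold no molecular identifiers, so intervals and floors cover counting error only.

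**Figure D4:**
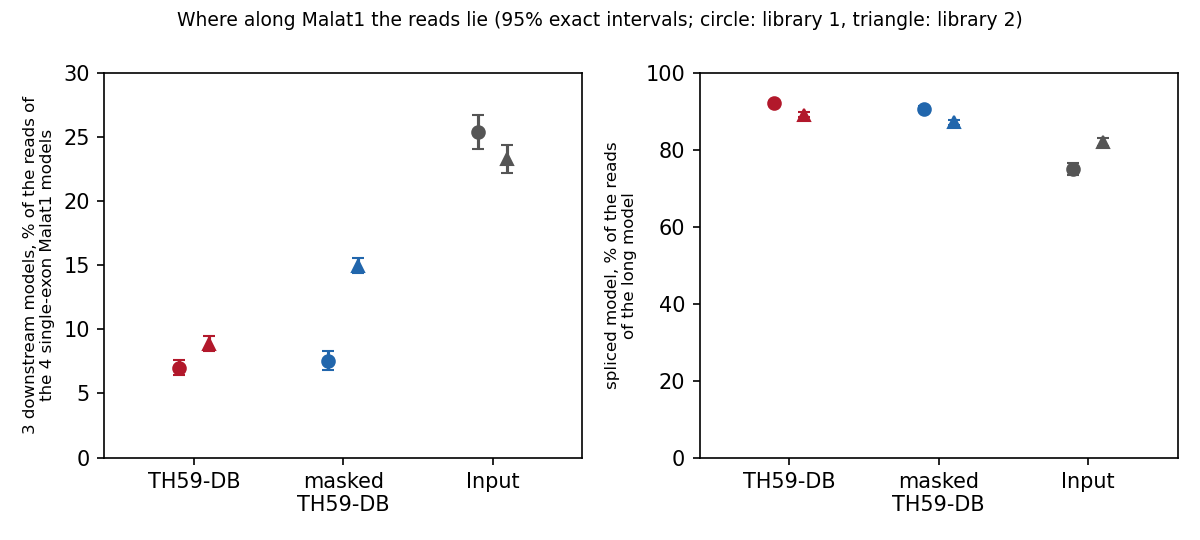
Left, the 3 downstream models as a percent of the reads of the 4 single-exon Malat1 models; right, the spliced model as a percent of the reads of the long model, for each library with 95% exact intervals. The capture libraries lie at 7.02% to 15.0% on the left and the Input libraries at 23.3% and 25.4%.

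Tug1 and Norad had no clear difference between TH59-DB and Input. Tug1 had 16.1 and 3.48 CPM in TH59-DB against 5.02 and 4.90 CPM in Input, so that one TH59-DB library was above and the other below both Input libraries (log2 fold change 1.00, SE 0.95, edgeR adjusted p = 0.768, and 0.25 without TH59-DB 1). Norad had 23.3 and 9.27 CPM in TH59-DB against 10.4 and 20.0 CPM in Input, where TH59-DB held the highest and the lowest value. Its log2 fold change was 0.33 (SE 0.71, edgeR adjusted p = 0.939), and it was -0.31 without Input 1.

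Masked TH59-DB against Input measures what the control capture alone brought down. Of the 18 models 0 passed edgeR's test (0.909% of all 5498 tested models passed as higher and 0.0% as lower). Kcnq1ot1 model 10 and Tug1 were the 2 that were higher at an unadjusted p under 0.05, with 0 lower (5.2% and 2.64% of all tested models), and DESeq2 called 0. The ranges did not overlap for 4 models that were higher and 0 that were lower (15.4% and 14.6% of all tested models). These were the spliced and the long Malat1 models, Kcnq1ot1 model 10 and Tug1. The 2 Malat1 models overlap in their bases and may count the same reads. The median log2 fold change was 0.98 over the 18 and -0.074 over all tested models. By gene it was 1.14 over the 11 Kcnq1ot1 models and 0.46 over the 5 Malat1 models, with 2.23 for Tug1 and 0.64 for Norad.

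The Malat1 long model averaged 3204 ± 1376 CPM in masked TH59-DB and 1355 ± 438 CPM in Input (SD, n = 2 each), with a log2 fold change of 1.28 (SE 0.97, edgeR adjusted p = 0.793). The spliced model had 1.46 (SE 0.96, edgeR adjusted p = 0.760). These estimates stand beside 1.75 and 1.95 for TH59-DB against the same Input libraries. Tug1 had 25.4 and 14.4 CPM in masked TH59-DB against 5.02 and 4.90 CPM in Input, a ratio of means of 4.01 (pooled ratio 3.76, 95% exact counting interval 2.46 to 5.91). Both masked libraries were well above both Input libraries, and the log2 fold change of 2.23 (SE 0.96) did not pass (edgeR adjusted p = 0.564). It was 0.97 without masked TH59-DB 1 (edgeR adjusted p = 0.914) and passed only without masked TH59-DB 2 (2.83, edgeR adjusted p = 0.00425). The Kcnq1ot1 models together had 40.6 and 66.6 CPM in masked TH59-DB against 16.4 and 35.4 CPM in Input. In CPM the groups did not overlap, with a ratio of means of 2.07. The exact permutation p was 0.333 (2-sided), the smallest possible. On the scale of the summed model counts the groups overlapped, with masked TH59-DB 1 at 58.7, below Input 2 at 78.0. Kcnq1ot1 model 10 had a log2 fold change of 1.97 (SE 0.79, edgeR adjusted p = 0.514). Norad overlapped between the groups, with 12.2 and 36.2 CPM in masked TH59-DB and 10.4 and 20.0 CPM in Input (log2 fold change 0.64, SE 0.70, edgeR adjusted p = 0.876).

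**Figure D5:**
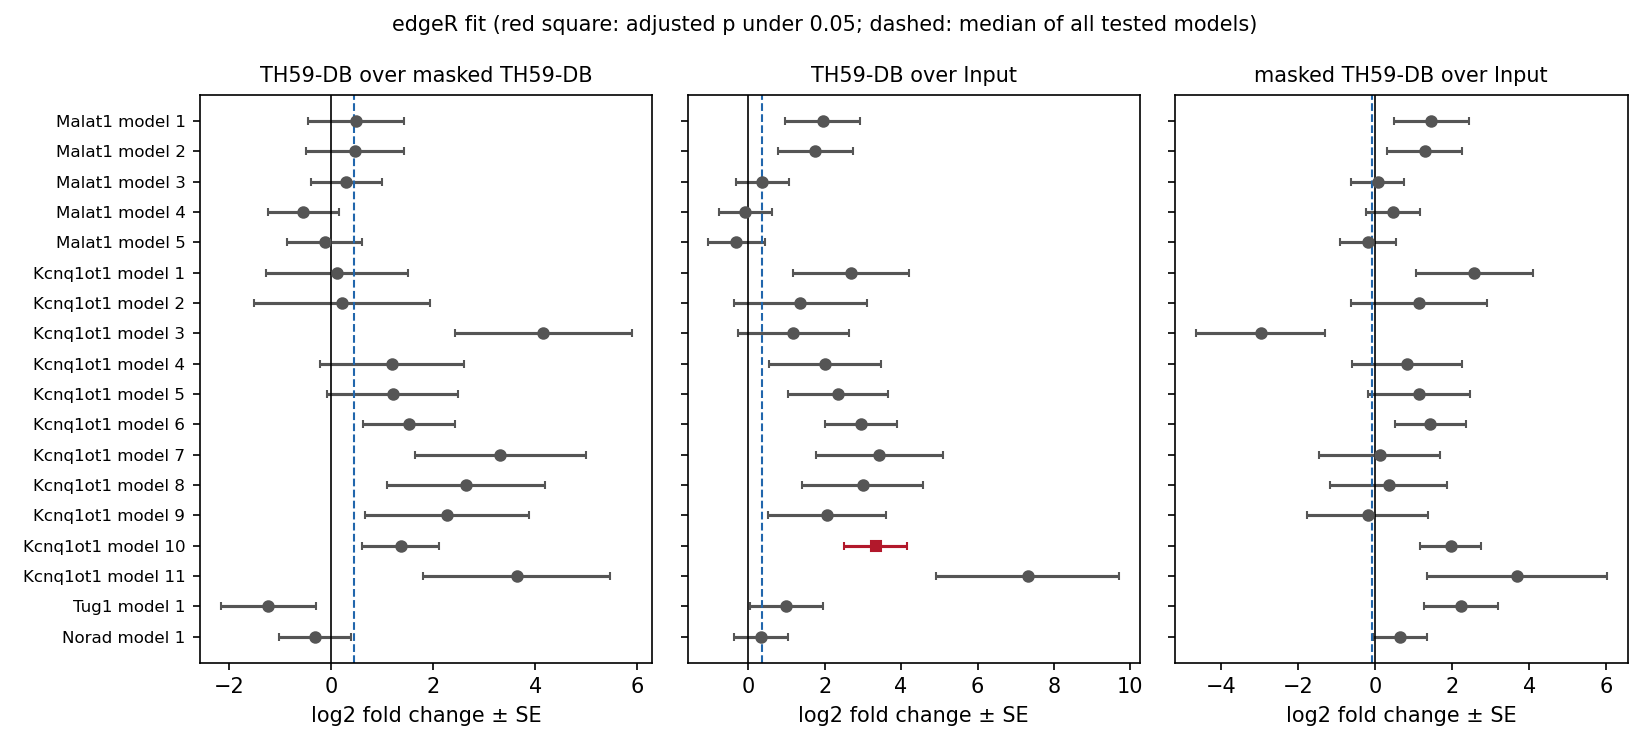
Fitted log2 fold changes with SE (horizontal axis) of the 18 models in the 3 comparisons; the dashed line is the median of all tested models. Kcnq1ot1 model 10 in TH59-DB over Input is the one point past the threshold, at 3.33.

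Genes related to the members by function were read from lists. Of 33 other lncRNA genes, 13 had a model and 11 were tested, and 0 passed edgeR's test or DESeq2 in any comparison. Their median log2 fold change was 0.15 for TH59-DB over masked TH59-DB, 0.32 for TH59-DB over Input and 0.21 for masked TH59-DB over Input (0.45, 0.35 and -0.074 over all tested models). Of all tested models, edgeR called 2.82%, 4.46% and 0.909% in these comparisons, so 0 of 11 is near those shares. At an unadjusted p under 0.05, Snhg20, a snoRNA host gene, was higher in TH59-DB than in masked TH59-DB (log2 fold change 2.33, edgeR adjusted p = 0.117) and than in Input (1.53, edgeR adjusted p = 0.298). Snhg3, also a snoRNA host gene, was lower in TH59-DB than in Input (-1.88, edgeR adjusted p = 0.187), and lower in masked TH59-DB than in Input by nearly as much (-1.82, edgeR adjusted p = 0.479). Snhg12 was lower in masked TH59-DB than in Input (-2.74, edgeR adjusted p = 0.615). Neat1, the neighbour of Malat1 that builds paraspeckles, had no model, although the far exon of the spliced Malat1 model lies beyond the Neat1 span.

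The list for the imprinted Kcnq1 domain had 5 of 13 genes with a model apart from the members. Kcnq1 is on that list, but the Kcnq1ot1 models, all within its span, were not counted for it. All 5 genes were tested, and 0 passed edgeR's test or DESeq2 in any comparison, nor was any at an unadjusted p under 0.05. Their median log2 fold change was -0.56 for TH59-DB over masked TH59-DB and 0.49 for TH59-DB over Input. Cdkn1c, a cell-cycle inhibitor gene of the domain, had 1.56 and 0.52, and Cd81, a tetraspanin gene, had 0.26 and -0.13 (edgeR adjusted p from 0.769 to 0.985). Tspan32 had -0.69 and 1.24, Nap1l4 -1.01 and -0.34, and Cars -0.56 and 0.49. For masked TH59-DB over Input the median of the 5 was 0.67, against -0.074 over all tested models. At most 4.46% of all tested models were called in a comparison, so 0 of 5 says little about these genes. Of 22 genes whose proteins bind the member RNAs, 18 had a model and 16 were tested. Again 0 passed edgeR's test or DESeq2, and 0 were at an unadjusted p under 0.05. Their median log2 fold change was -0.12 for TH59-DB over masked TH59-DB and -0.24 for TH59-DB over Input. Srrm2, a speckle protein gene, had 0.70 and 0.64, and Pum2, which encodes a Pumilio protein, had 0.31 and -0.27. By the unadjusted rule, 9.86% of all tested models were higher and 1.76% lower in TH59-DB over masked TH59-DB. In TH59-DB over Input these shares were 11.2% and 3.38%, and in masked TH59-DB over Input 5.2% and 2.64%.

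The genes most like each member across the 6 libraries were found by the root mean square difference of log2(CPM + 0.5), after each profile was centred on its own mean, among 4940 tested models in named spans. For the long Malat1 model these were Golgb1, a Golgi protein gene (difference 0.093), Mki67, a proliferation marker (0.17), and Gm39273 (0.21), against a median of 1.27 over all candidates. Golgb1 had 63.2 and 50.2 CPM in TH59-DB, 38.6 and 77.5 CPM in masked TH59-DB and 15.4 and 27.3 CPM in Input. For Tug1 they were Ankfy1 (0.21), Brix1, a ribosome assembly gene (0.24), and Fnbp4 (0.25), with a median of 1.58. For Norad they were Apoe, an apolipoprotein gene (0.13), Chst15 (0.14) and Mat2a, which makes S-adenosylmethionine (0.19), with a median of 1.06. For Kcnq1ot1 model 10 they were Gm6147 (0.34), Gnpat (0.34) and Stt3b (0.38), with a median of 1.59, and the last 2 had 0 CPM in masked TH59-DB 1 and both Input libraries. A model in the span of a gene need not belong to its transcript.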

How the data were processed

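The 6 libraries were analysed, 2 in each of 3 groups taken from the sample titles. The deposited counts are whole reads per assembled transcript model, and the deposited FPKM values equal the count divided by model length and a library total. Per the submitters' processing notes, cutadapt, HISAT2, Cufflinks and featureCounts were used with build mm10; versions, roles and strand setting are not given in the sources used here. The library totals were recovered from the FPKM values and used for CPM. What they count is not stated, and a count of 0 carries the FPKM of 1 read in 4 libraries. Overlap of groups was read in CPM, and for single models on no other scale. Files of number 1 and 2 name models differently: 7695 were joined on all exons, and 264, the spliced Malat1 model included, on chromosome, first start and length, because their exon ends differ in the files of number 2.

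Counts were tested with edgeR 4.0.16 in R 4.3.3 (filterByExpr, TMM, robust glmQLFit, glmQLFTest, Benjamini-Hochberg over 5498 models, 2-sided, threshold 0.05) in 1 fit of the 6 libraries; the library size was the sum of the model counts, and the biological coefficient of variation was 0.670. Alternatives were RLE factors, the recovered totals with and without TMM, no filter, DESeq2 1.42.0, the replicate number as a block and each library left out. Gene spans came from a RefSeq table of GRCm38.p6. The members and lists were chosen with earlier results of these data known. Named genes were all member models, the 3 genes most like each lead model, and list members; those singled out from the lists, and the Kcnq1ot1 models described singly, were chosen after their values were seen.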

Additional observations from a re-analysis of the deposited data

How the results depend on the processing

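The number of models called in TH59-DB over masked TH59-DB was 155 as reported, 76 with library totals and TMM, 275 with DESeq2, and 32 to 1702 with 1 library left out. In TH59-DB over Input it was 245 as reported, 404 with DESeq2, and 103 to 800 with 1 library left out. In masked TH59-DB over Input it was 50 as reported, 14 with library totals and TMM, 108 with those totals and no TMM, 135 without the filter, 119 with DESeq2, and 23 to 1365 with 1 library left out. Of the 18 members, 1 was called in TH59-DB over Input as reported, 0 with library totals with or without TMM and 5 with DESeq2. With 1 library left out, 0 to 7 were called in that comparison, 0 to 5 in TH59-DB over masked TH59-DB and 0 to 2 in masked TH59-DB over Input. The highest of these counts came without masked TH59-DB 2 in all 3 comparisons, which leaves masked TH59-DB 1, with 4341 models at 0 reads, as the lone masked library. The lowest counts of all models came without TH59-DB 2 in the comparisons with TH59-DB and without Input 2 in the other. A lone library is assumed to vary like the other groups. The cause of these differences was not tested.

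The replicate number as a block gave 217 calls in TH59-DB over masked TH59-DB, 325 in TH59-DB over Input and 127 in masked TH59-DB over Input. It changed no call of a member. It turned the masked over Input value of Malat1 model 3 to -0.12 (0.066 as reported), and 5 of the 11 Kcnq1ot1 models were then above 0, against 9. The differences between libraries 1 and 2 correlated by 0.158 between masked TH59-DB and Input, 0.0936 between TH59-DB and Input and 0.0504 between TH59-DB and masked TH59-DB (across models). The labels name no shared culture or day. The files of number 1 and of number 2 differ in format and in whether a strand is given, so a batch that goes with the number may exist; its part in the results was not tested beyond this block.

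No sign change of the models listed here passed the test; Kcnq1ot1 models 1, 2, 4, 5 and 7 to 9 were followed by their count above 0. Values in brackets are as reported, and ranges are over the fits with 1 library left out. In TH59-DB over masked TH59-DB, Malat1 model 1 (0.49) ran over -0.067 to 0.77, model 2 (0.47) over -0.12 to 0.77, model 3 (0.30) over -0.75 to 1.10, model 4 (-0.54) over -1.98 to 0.12 and model 5 (-0.13) over -0.95 to 0.48. Model 3 had -0.32 with library totals and no TMM. In TH59-DB over Input, Malat1 model 3 (0.37) ran over -0.95 to 0.84, model 4 (-0.078) over -1.92 to 0.58 and model 5 (-0.31) over -1.42 to 0.054. There Kcnq1ot1 model 3 (1.18) ran over -0.095 to 3.23 and Norad (0.33) over -0.31 to 0.32, and Malat1 model 3 had -0.10 with library totals and no TMM. In masked TH59-DB over Input, Malat1 model 3 (0.066) ran over -0.86 to 0.48 and model 5 (-0.19) over -0.93 to 0.16, and model 3 had -0.091 with library totals and TMM. Kcnq1ot1 model 11 has no value there without masked TH59-DB 2, where both groups held 0 reads. With library totals the median of all tested models was 0.30 with TMM and 0.083 without for TH59-DB over masked TH59-DB, 0.031 and 0.10 for TH59-DB over Input, and -0.26 and 0 for masked TH59-DB over Input.

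By the rule of at least 50% of bases 18 models were found, and 1 when only those on the strand of the gene were taken. Summed over all 5 models, Malat1 had 7001 ± 1041 CPM in TH59-DB, 6492 ± 2910 in masked TH59-DB and 2860 ± 954 in Input. Counted without the overlap these were 3814, 3662 and 1785 CPM, and with the strand-matched model alone 3187, 2830 and 1075 CPM. Per 1000000 of the summed model counts they were 15334, 13153 and 6005 for Malat1, and 263, 107 and 54.8 for Kcnq1ot1. By that measure masked TH59-DB 1 lay below Input 2, with 6408 against 7791 for Malat1 and 58.7 against 78.0 for Kcnq1ot1. On that scale Tug1 had 35.1 in masked TH59-DB and 10.3 in Input, and Norad had 32.7 in TH59-DB, 50.9 in masked TH59-DB and 32.0 in Input. With the totals freed of the 2 largest models, Malat1 had 8909 in TH59-DB, against 10692 in masked TH59-DB, Kcnq1ot1 had 154 and 90.5, and Tug1 had 39.3 in masked TH59-DB and 6.40 in Input. TH59-DB thus lay above masked TH59-DB for Kcnq1ot1 on each of these scales, and for Malat1 on all but the last.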

Other observations

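The nearest gene with a model on each side of each member gave no call, where at most 4.46% of all tested models were called in a comparison. Beside Kcnq1ot1, Cd81 lay 146 kb away and Cdkn1c 163 kb away. Cd81 had 11 and 4 reads in TH59-DB, 0 and 26 with the masked probe and 14 and 11 in Input. Cdkn1c had 12 and 14 reads in TH59-DB, 2 and 14 with the masked probe and 11 and 21 in Input. Kcnq1ot1 itself lay 2044 kb from the outermost model of chromosome 7 toward higher coordinates, against 25620 kb for Norad, 55529 kb for Malat1 and 118334 kb for Tug1, measured the same way on their chromosomes. The distance to the other, lower-coordinate end was not measured. Toward that end, the span of Tug1 begins at base 3639785 of its chromosome and that of Malat1 at base 5795690. Those of Kcnq1ot1 and Norad begin at bases 143213111 and 156388063 of theirs.

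Beside Malat1, Fam89b lay 66.8 kb away and had 22 and 6 reads in TH59-DB, 30 and 3 with the masked probe and 11 and 15 in Input. Beside Norad, Scand1 lay 76.0 kb away and had 18 and 1 reads in TH59-DB, 26 and 60 with the masked probe and 22 and 39 in Input (log2 fold change -1.79 for TH59-DB over masked TH59-DB, edgeR adjusted p = 0.638). Beside Tug1, Pes1, a ribosome biogenesis gene, lay 328 kb away and had 30 and 31 reads in TH59-DB, 8 and 56 with the masked probe and 46 and 104 in Input.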
